A study of Caenorhabditis elegans with 4 samples.

Results

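The arms of chromosome II of Caenorhabditis elegans were examined for binding of T09A5.8, a chromodomain protein listed as cec-3 among the WBcel235 gene symbols. A site was a span of overlapping peaks (at least 1 bp) that held at least 1 peak of each of the 2 ChIP replicates. The sites with a midpoint from 500001 to 5093065 (left arm) or from 10186132 to 14779196 (right arm) were taken, on genome build WS220. The limits divide the chromosome into 3 equal parts and leave out the terminal 500 kb, so that each arm is 4.59 Mb long. The arms held 346 of the 3117 sites of the genome, 198 in the left arm and 148 in the right arm.

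The libraries came from whole fem-2(b245) hermaphrodites, labelled as germline-containing young adults, at 20 °C, and all samples carried this allele. The growth protocol describes gravid adults, so the exact stage is uncertain. ChIP was done with the rabbit polyclonal antibody SDQ4501 in 2 libraries, and 2 input libraries were not analysed here. Each library pooled many worms, so strong binding in few cells and weak binding in many cannot be told apart. No label states that the replicates came from separate cultures, and spreads between them may be technical. The lists hold no read counts, so the depth is unknown.

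Chromodomain proteins read methylated lysines on histone tails, and the cec-3 protein is known to recognise methylated lysine 9 of histone H3. In worm autosomes this mark and most repeats lie in the arms, while the gene-dense centre carries little of it. The left end of chromosome II also holds its meiotic pairing centre, the region bound by the zinc-finger protein ZIM-1. The fem-2 gene product is a phosphatase that acts in sex determination, and b245 is a temperature-sensitive feminizing allele.

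T09A5.8 peaks were more numerous in the left arm of chromosome II than in the right arm, in each replicate. The left arm had 254 peaks in replicate 1 and 275 in replicate 2. The right arm had 174 and 190. The left arm had 1.45 ± 0.00877 times as many peaks (SD, n = 2), a spread between the replicates only. By sites, the arms held 43.1 and 32.2 per Mb, both below the median of 59.7 in the other 8 autosome arms. Peaks covered 17.9% of the left arm in replicate 1 and 19.9% in replicate 2, against 10.4% and 10.9% of the right arm. The ratio of covered bases, 1.77 ± 0.0793 (SD, n = 2), was thus larger than the ratio of peak numbers. The series-level list had 1206 peaks in the left arm and 627 in the right arm, covering 17.7% and 9.69% of the bases. With 2 replicates, an exact permutation of the arm labels within each replicate gives a two-sided p of 0.5 at the least, which is what these differences gave, so the test could not pass 0.05. Differences are therefore set only against the spread between replicates.

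Both number and width entered the difference in bases. The 198 left sites were 1.34 times as many as the 148 right sites, and their mean width was 1.30 times as large (4216 against 3242 bp). Together the left sites covered 835 kb of the arm and the right sites 480 kb, a ratio of 1.74. The median widths lay closer, at 2499 bp in the left arm and 2327 bp in the right arm. The middle 50% of the left sites ran from 1728 to 5393 bp, and that of the right sites from 1574 to 4171 bp. The median peak in the left arm was 2013 bp wide in replicate 1 and 1929 bp in replicate 2, and in the right arm 1840 and 1827 bp, a gap of 138 ± 49.9 bp (SD, n = 2). Series-level peaks had the opposite order, with a median peak of 340 bp in the left arm and 366 bp in the right arm.

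The widest sites were mostly in the left arm. It held 16 sites wider than 10 kb, or 8.08% of its sites, and the right arm held 3, or 2.03%. In the other 8 autosome arms this share ran from 2.46% to 12.5%, with a median of 7.20%. The left share was thus within that range and the right share below it. In the replicate lists the left arm had 11 and 13 peaks of that width, of 254 and 275. The right arm had 3 and 2, of 174 and 190. The left sites wider than 10 kb held 28.5% of the left site bases, and the right ones 7.08%. Among sites of up to 10 kb, the left arm had 1.26 times as many sites and 1.34 times as many bases in them as the right arm. At the narrow end, 34.8% of the left sites and 41.9% of the right sites were up to 2 kb wide.

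The 3 widest left sites lay at 2451387 to 2479121 (27735 bp), 2266468 to 2293176 (26709 bp) and 2174018 to 2192498 (18481 bp). Each was more than 1.5 times as wide as any right site. In the right arm the 3 widest were 14320323 to 14332293 (11971 bp), 13187523 to 13199146 (11624 bp) and 13026028 to 13036415 (10388 bp). The widest site of the right arm was not among its strongest, with scores of 232 and 872 in replicates 1 and 2, whereas the other two scored 3100 in both.

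Along each arm, coverage by T09A5.8 was uneven and highest at the same distance from the chromosome end. Windows of 500 kb were laid from the terminal 500 kb inward, so that the windows of the arms mirror each other. The densest window of both arms was 1.5 to 2 Mb from the end. In the left arm (1500001 to 2000000) peaks covered 47.2% and 48.9% of its bases in replicates 1 and 2, and in the right arm (13279197 to 13779196) 25.1% and 26.1%. The outermost window, 0.5 to 1 Mb from the end, was covered to 8.23% and 9.99% in the left arm and to 10.6% and 11.4% in the right arm. Here the left arm was the lower one in each replicate.

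**Figure D1:**
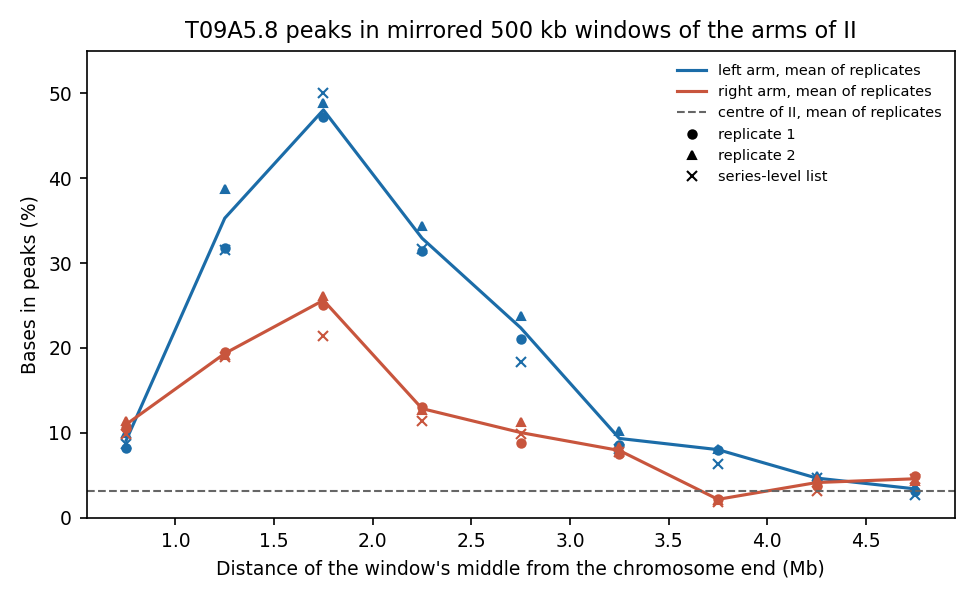
Percent of bases in peaks in 9 mirrored 500 kb windows of each arm, plotted by the distance of the window from the chromosome end in Mb. Circles and triangles are replicates 1 and 2, crosses are the series-level list, lines are replicate means, and the dashed line is the mean of the centre of chromosome II. Both arms are highest at 1.5 to 2 Mb, where the replicate means are 48.0% in the left arm and 25.6% in the right arm.

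The surplus of the left arm lay mostly between 1 and 3 Mb from the end, a division made after the values were seen. In this stretch the left arm had 148 sites and the right arm 101, a difference of 47 sites and 334 kb. The outermost window had 11 left and 15 right sites (43.5 and 53.2 kb), and beyond 3 Mb the left arm was ahead by 7 sites and 30.7 kb, so the net difference over the whole arm was 50 sites and 355 kb. Peaks covered 32.9% and 36.4% of the stretch in the left arm in replicates 1 and 2, against 16.6% and 17.3% in the right arm, a ratio of 2.04 ± 0.0912 (SD, n = 2). It held 80.2% of the site bases of the left arm and 69.9% of those of the right arm. Of the wide sites, 13 of the 16 on the left and 2 of the 3 on the right were in it.

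Beyond 3 Mb from the end, both arms were more sparsely bound than between 1 and 3 Mb, yet more densely than the centre. The left arm had 39 sites there (18.6 per Mb) and the right arm 32 (15.3 per Mb), against 54 sites (10.6 per Mb) in the centre. Coverage in this inner stretch was 5.81% and 6.40% in the left arm and 4.48% and 4.65% in the right arm, compared with 3.07% and 3.32% in the centre (replicates 1 and 2). The window 3.5 to 4 Mb from the right end, at 11279197 to 11779196, was covered to 2.27% and 2.09%, below the centre in each replicate and the emptiest 500 kb of the right arm. The emptiest 500 kb of the left arm was the innermost full window, 4500001 to 5000000, at 3.19% and 3.63%.

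Width and score had weak rank correlations with the distance from the end. Scores are the authors' own, so each was turned into a percentile within its list, and a site took the mean over the replicates of its highest peak. Across the 198 left sites, the Spearman rho of distance from the end with width was -0.12 and with score percentile -0.04. Across the 148 right sites these were -0.08 and -0.07. Neighbouring sites share libraries and chromatin, so these values are descriptions only. By stretch, from 0.5 to 1 Mb through 1 to 3 Mb to beyond 3 Mb, the median width was 2294, 2632 and 2150 bp in the left arm and 2891, 2380 and 1961 bp in the right arm. The median score percentile was 56.4, 55.7 and 52.1 in the left arm and 50.9, 49.999 and 37.6 in the right arm, so the inner right sites had the lowest medians. Sites of the highest scores also lay in the inner stretches. Scores of 3100 or more in both replicates were found at 5 of 39 inner left sites (12.8%) and 6 of 32 inner right sites (18.8%). Between 1 and 3 Mb they were found at 11 of 148 (7.43%) and 14 of 101 (13.9%), and in the outermost window at 1 of 11 (9.09%) and 0 of 15. The share over all sites of the genome was 13.1%, so the inner left share was near it, and the counts are small.

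**Figure D2:**
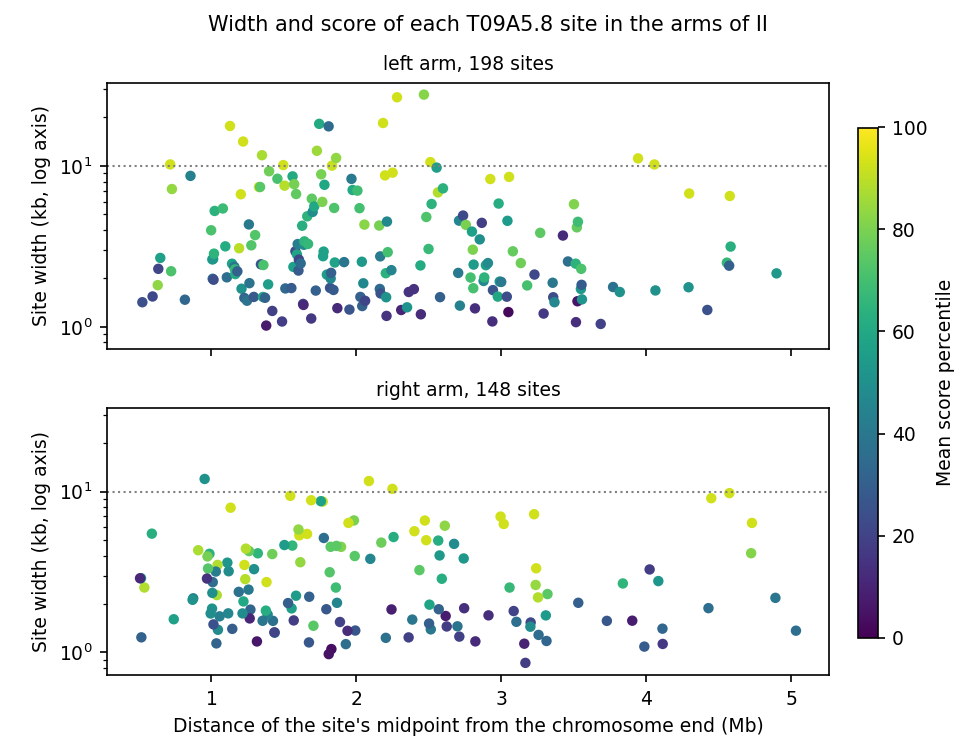
Each of the 198 left and 148 right sites, by distance of its midpoint from the chromosome end (Mb) and width (kb, log axis), with the mean score percentile as colour. The dotted line marks 10 kb. Sites crowd between 1 and 3 Mb, and 16 left but 3 right sites lie above the line, and high-percentile sites appear beyond 4 Mb in both arms, where sites are few.

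The sites of the left arm also stood closer together. The median gap between neighbouring sites was 4496 bp in the left arm and 10080 bp in the right arm. Gaps of up to 1 kb made up 31.0% of the left gaps (61 of 197) and 17.0% of the right gaps (25 of 147). When sites were joined across gaps of up to 10 kb, 10 runs of 5 or more sites held 46.0% of the left sites, and 5 such runs held 20.3% of the right sites. The longest left runs were 1687461 to 1782924, with 12 sites over 95464 bp, and 1550106 to 1642462, with 16 sites over 92357 bp. Peaks covered 73.5% and 78.6% of the bases of the former in replicates 1 and 2. In the right arm the longest were 14264761 to 14332293, with 10 sites over 67533 bp, and 13711111 to 13751942, with 5 sites over 40832 bp.

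The longest gaps were of like size in both arms. In the left arm the longest ran from 4582126 to 4896118 (313993 bp) and the next from 4062795 to 4289462 (226668 bp). In the right arm they were 10852482 to 11166470 (313989 bp) and 11750379 to 11960575 (210197 bp). All of these lay beyond 3 Mb from the end. None held more than 1 peak of either replicate, and series-level peaks in them numbered 2 and 4 on the left and 6 and 11 on the right.

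The order of the arms by median score percentile, unlike that by coverage, depended on the list and on the peaks kept. The median score percentile of the sites was 55.3 in the left arm and 49.9 in the right arm. Taken over peaks, it was 46.5 and 44.4 in the left arm and 43.7 and 43.0 in the right arm (replicates 1 and 2). The order was the reverse among series-level peaks, with median percentiles of 41.5 and 46.6. It was also reversed when each list was reduced to its higher-scoring 50% before sites were formed, where the left arm was 11.7 percentile points lower. The lists pile up at a score of 3100, which 17 left sites (8.59%) and 20 right sites (13.5%) reached or passed in both replicates, compared with 13.1% of all sites of the genome. Among peaks, 21 and 23 on the left and 20 and 28 on the right reached it, so the shares were 8.27% and 8.36% against 11.5% and 14.7%.

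At a like width of more than 2 kb and up to 10 kb, right sites scored higher than left ones, a comparison made after the values were seen. For sites over 5 and up to 10 kb, the median score in the left arm was 1442 in replicate 1 and 1642 in replicate 2 (36 sites), while in the right arm it was 3100 in both (22 sites). For sites over 2 and up to 5 kb the medians were 458 and 775 in the left arm (77 sites), and 724 and 1267 in the right arm (61 sites). The order did not depend on merging peaks into sites. Of the peaks over 5 and up to 10 kb, 15 of 36 and 13 of 38 scored 3100 or more on the left (41.7% and 34.2%), and 14 of 19 and 15 of 18 on the right (73.7% and 83.3%). Up to 2 kb the replicates differed in order, with median peak scores of 137 and 127 on the left and 124 and 197 on the right. Within each arm wider sites had higher percentiles (Spearman rho 0.75 across the left sites and 0.78 across the right sites, as descriptions).

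**Figure D3:**
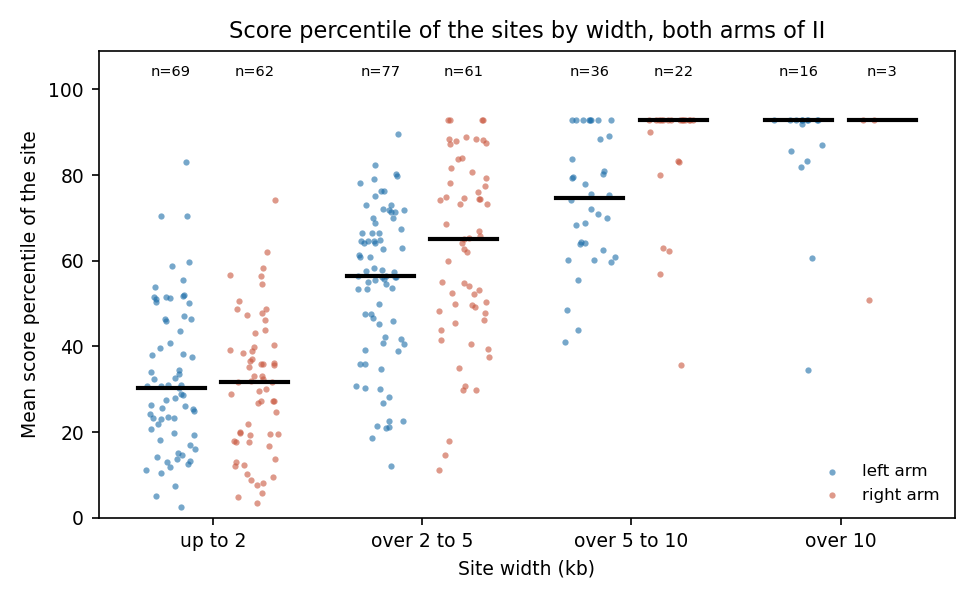
Mean score percentile of each site by width class (kb) in the left and right arms. Points are sites, black bars are medians and n is the number of sites. In the class over 5 to 10 kb the median is 74.7 in the left arm and 92.9, the percentile of a score of 3100 in both replicates, in the right arm.

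The highest-ranked sites were tied. All 17 left and 20 right sites at 3100 in both replicates shared the mean percentile 92.9, so ties were ordered by the highest series-level score. In the left arm this gave 2918923 to 2927212 (series-level score 119), 1118848 to 1136558 (105), 3048362 to 3056910 (89.0), 1199051 to 1205717 (76.0) and 710027 to 720245 (75.7). In the right arm it gave 12050281 to 12057509 (95.9), 13026028 to 13036415 (75.2), 12876898 to 12882567 (66.3), 13187523 to 13199146 (63.0) and 13331224 to 13337607 (61.1). These left sites were 6667 to 17711 bp wide and the right ones 5670 to 11624 bp. The left and right leaders, 118.94 and 95.89 before rounding, were also the highest series-level scores of their arms.

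Within sites, the peaks of the replicates mostly had similar limits. Each site by definition held a peak of each replicate, so these values leave out unshared peaks. They do not measure the agreement of the whole lists. A site held exactly 1 peak of each replicate in 170 of 198 left cases (85.9%) and in 132 of 148 right cases (89.2%). The starts of the replicate peaks differed by a median of 81.5 bp in the left arm and 97 bp in the right arm, and their ends by 121 and 71 bp. Site scores of the replicates had a Spearman rho of 0.84 across the left sites and 0.88 across the right sites, as descriptions. In the left arm, 19 sites held more peaks of replicate 1 and 6 held more of replicate 2, and in the right arm 5 and 9.

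In both arms, peaks without a partner in the other replicate were lower in median score and median width than shared peaks. Replicate 2 had 66 such peaks in the left arm, 24.0% of its left peaks (95% Wilson interval 19.3 to 29.4), and 31 in the right arm, 16.3% (11.7 to 22.2). Replicate 1 had 27 on the left (10.6%, 7.41 to 15.0) and 19 on the right (10.9%, 7.10 to 16.4). The intervals cover counting error only, and those of the arms overlap in each replicate. Unshared left peaks had a median score of 87.5 in replicate 1 and 96.1 in replicate 2, compared with 397 and 573 for shared ones. In the right arm the unshared medians were 111 and 130, and the shared ones 308 and 474. The unshared peaks were a median of 1216 and 1139 bp wide on the left and 1190 and 1277 bp on the right, against 2121 and 2428 bp and 2060 and 2035 bp for shared ones. Some unshared peaks scored far above these medians, up to 1771 in replicate 1 and 783 in replicate 2 on the left, and up to 738 and 555 on the right. Between 1 and 3 Mb from the end lay 20 of the 27 unshared left peaks of replicate 1 and 51 of the 66 of replicate 2. On the right these were 12 of 19 and 21 of 31. The same stretch held 74.7% of the left sites and 68.2% of the right sites, so the unshared peaks were placed much as the sites were.

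The series-level list divided the sites into smaller peaks, and left sites held more of them. A left site held 3.54 series-level peaks on average and a right site 2.42, with medians of 3 and 2. A single left site held none. Series-level peaks covered a median of 69.9% of the bases of a left site and 66.9% of a right site. Of the series-level peaks in the left arm, 51.8% overlapped both replicates and 27.4% (95% Wilson interval 25.0 to 30.0) overlapped neither. In the right arm these were 50.4% and 29.8% (26.4 to 33.5). Those in neither had median scores of 4.0 and 4.37, against 8.83 and 9.91 for those in both, and reached at most 12.8 at 1977547 to 1979280 on the left and 22.4 at 12747510 to 12749246 on the right.

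The limits of the arms cut through no site. At the outer limit of the left arm, the nearest site inside (522468 to 523890) scored 159.45 and 125.33 in replicates 1 and 2, and the nearest outside (476961 to 480500) 179 and 165. At its inner limit, the site inside (4896119 to 4898268) scored 523 and 440 and the one outside (5180743 to 5183328) 457 and 481. At the inner limit of the right arm, the site inside (10247374 to 10248739) scored 214 and 245 and the one outside (10174095 to 10175364) 104 and 251. At its outer limit, the site inside (14770413 to 14773303) scored 91.7 and 77.1 and the one outside (14791516 to 14795226) 1153 and 1105.

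Set against the rest of the chromosome, the arms had 3.55 times as many sites per Mb as the centre. By peaks the ratio was 4.02 in replicate 1 and 4.16 in replicate 2, and by series-level peaks 6.35. The sites of the centre had a median score percentile of 53.7, between those of the arms, and a median width of 2212 bp. Taken over peaks, the median percentile of the centre, 47.5 and 51.9 in replicates 1 and 2 and 48.0 in the series-level list, was above that of either arm in each list. The terminal 500 kb were not the densest parts of the chromosome. The left end (1 to 500000) was covered to 8.54% and 11.3% and the right end (14779197 to 15279196) to 14.02% and 16.3%.

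Among the 10 autosome arms, each without its terminal 500 kb, the left arm of chromosome II ranked 6th and the right arm 8th by the share of bases in sites (18.2% and 10.4%). The other 8 arms ran from 6.76% to 34.0%. By median site width the arms of chromosome II ranked 6th and 7th. By the share of sites wider than 10 kb the left arm ranked 4th (8.08%) and the right arm was the lowest of the 10 (2.03%, next to 2.46% in the right arm of chromosome III). With each arm cut at its middle, the outer part was covered 3.87 times as densely as the inner part in the left arm and 3.74 times in the right arm, against 1.16 to 5.35 times in the others. The densest 500 kb window lay 1 to 2 Mb from the end in 9 of the 10 arms. The left arm of chromosome II had the greatest contrast between its densest and outermost windows, 5.30 times, followed by its right arm at 2.45 times, with 1.04 to 2.25 times elsewhere. These ranks are descriptions, and the differences between chromosomes were not tested.

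**Figure D4:**
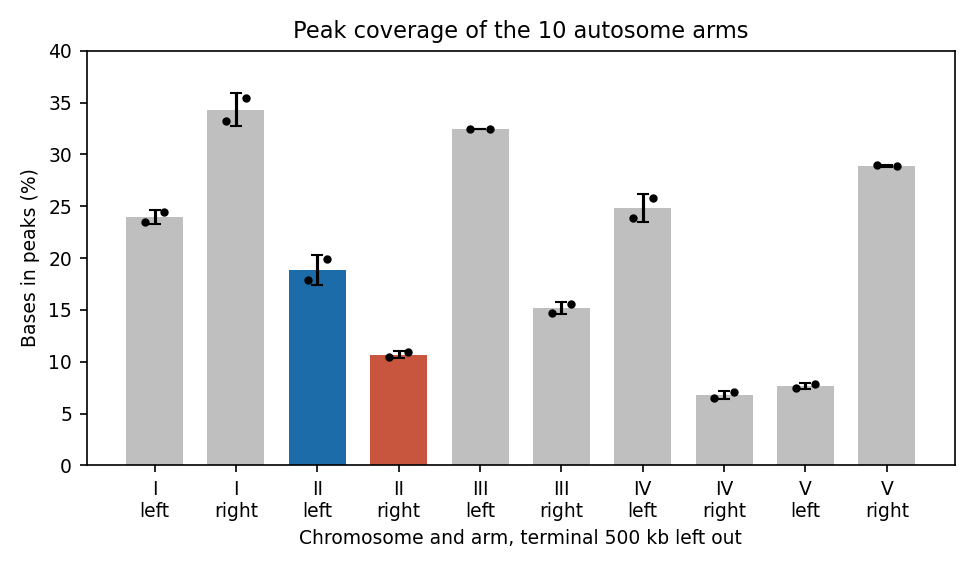
Percent of bases in peaks in the 10 autosome arms without the terminal 500 kb. Bars are means over the 2 replicates, error bars are the SD (n = 2) and dots are the replicates, with the arms of chromosome II in colour. The left arm of chromosome II averages 18.9% and the right arm 10.7%.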

How the data were processed

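Per the file headers and source column, MACS made the replicate lists and MACS v2 the series-level one, on WormBase WS220. Aligner, thresholds, use of the input and any pooling are not given in the sources used here. Each peak has a score deposited by the authors, which no header defines, so it was compared only within its own list. Peak calling yields regions past a threshold and gives no measure of the amount bound.

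Peaks of the 2 replicates that overlapped by at least 1 bp were merged, and covered bases were counted within the limits of each arm. The length of chromosome II was the largest peak end, 15279196. Replicate spread is given as the SD, and intervals are Wilson 95%. The site functions were tested on simulated data. The members, windows and alternatives were chosen with earlier results of these data known. Named sites were the 5 highest by mean score percentile and the 3 widest of each arm, with the longest gaps and runs and the sites nearest to the limits. The alternatives were a 50% overlap, peaks above the median score, each replicate alone, the series-level list, kept terminal 500 kb, and arms taken as the outer of 4 parts of equal length. Sequence and gene content were not analysed here. Analyses used Python 3.11.15, numpy 2.4.6, pandas 2.3.3, scipy 1.17.1 and matplotlib 3.10.9.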

Additional observations from a re-analysis of the deposited data

How the results depend on the processing

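The left arm had more sites, more covered bases and more sites wider than 10 kb than the right arm under every alternative run. With a replicate left out, and in the series-level list, the peaks of a single list were counted in place of sites. The values with a replicate left out therefore restate the peak values of each replicate and add no further support. The left to right ratio of sites (1.34) was 1.36 with a 50% overlap, 1.61 with peaks above the median score, 1.92 in the series-level list, 1.28 with the terminal 500 kb kept and 1.40 with the chromosome cut into 4 parts, and 1.45 to 1.46 with a replicate left out. The ratio of bases (1.74) was 2.05 above the median score, 1.82 in the series-level list, 1.60 with the ends kept and 1.82 with 4 parts, and 1.71 to 1.82 with a replicate left out. Between 1 and 3 Mb from the end, a stretch chosen after the data were seen, the ratio of bases (2.0) was 2.34 above the median score, 2.13 in the series-level list and 1.98 to 2.11 with a replicate left out. Sites wider than 10 kb, a count also added after the data were seen, numbered 3 on the left and 1 on the right in the series-level list, whose peaks are narrower, and elsewhere 11 to 16 and 2 to 4.

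The density ratio of arms to centre (3.55) was 3.67 with a 50% overlap, 3.74 above the median score, 6.35 in the series-level list, 4.68 with 4 parts and 4.02 to 4.16 with a replicate left out. The left minus right difference in median width (173 bp) was 105 bp with a 50% overlap and 102.5 to 173 bp with a replicate left out, and it reversed to -26 bp in the series-level list. The difference in median score percentile (5.39) was 4.03 with a 50% overlap, 3.43 with the ends kept and 1.36 to 2.77 with a replicate left out. It reversed to -11.7 above the median score and to -5.08 in the series-level list. The cause was not tested.

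Between the ChIP and input groups, no paired analysis was possible because no test compared ChIP with input, whose libraries were not used here. The left and right arms, in contrast, were compared as pairs within each replicate, by the exact permutation of arm labels given above. The exact test over 2 replicates cannot pass 0.05 and says nothing about stability. Depth is unknown, so its part in the weak unshared peaks could not be examined.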

Other observations

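Some of the widest left sites combined great width with modest scores in the replicate lists, a set picked after the values were seen. The widest right site, described above, did so too. The left site at 1799073 to 1816689 spanned 17617 bp but scored 207 in replicate 1 and 227 in replicate 2. It held 11 series-level peaks with scores of up to 33.2. Another, at 1733771 to 1752029, spanned 18259 bp, scored 551 and 813, and held 9 with scores of up to 19.3. Among single series-level peaks, a score of 12.76 was at percentile 73.8 and 22.37 at percentile 87.7. The scores of these sites are each the highest of several peaks, so such percentiles do not rank the sites. Across the left sites wider than 10 kb, the highest series-level score ran from 16.25 to 104.87. Both of these left sites lay in the densest window of the arm, 1500001 to 2000000. It held 395 series-level peaks, compared with 142 in the mirrored window of the right arm.

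The widest site of the chromosome II arms, 2451387 to 2479121, ranked differently in the replicate lists. Replicate 1 had 3 peaks in it, the highest at percentile 99.9 of its list, whereas replicate 2 had 1 peak, at percentile 63.9. The series-level list held 7 peaks there with scores of up to 78.5. These formed its longest run in the left arm with gaps of up to 500 bp bridged, spanning 27125 bp. The longest such run in the right arm spanned 12047 bp, at 13026181 to 13038227.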
